A study of Mus musculus with 21 samples.

Results

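The mouse has a pair of neighbouring lysozyme genes, Lyz1 and Lyz2, which were matched by GENCODE symbol and are 2 of the 56953 genes counted. They were chosen on measured values of these libraries, because Lyz1 was lower in TET2-KO than in WT B-1b libraries while Lyz2 was abundant everywhere, so their levels and every B-1b contrast below are a description without a test. Lysozyme is a secreted and lysosomal enzyme that cuts the peptidoglycan of bacterial cell walls. Lyz2 encodes the M form made by macrophages, monocytes and neutrophils, and Lyz1 encodes the P form best known from Paneth cells of the small intestine. Neither gene is a B cell gene in textbook accounts. Adgre1, which encodes the surface antigen most used to mark mouse macrophages, was set beside them as a measure of macrophage RNA. TET2 is a dioxygenase that oxidizes methylated cytosines in DNA.

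The RNA came from 3 B cell subsets (B-2, B-1a, B-1b) sorted from the peritoneal cavity (PerC) of C57BL/6 mice, either WT or TET2-KO, with 21 libraries in all. B-1a cells gave 4 WT and 4 TET2-KO libraries, B-1b cells 4 and 3, and B-2 cells 2 and 4. The knockout was global, from an allele in which exons 8 to 10 of Tet2, its catalytic region, can be deleted, so any cell type in a sort carried it. The mice are described as young, and their age in weeks is not given in the sources used here. No label says that libraries of a group came from separate mice, so p-values measure only the spread between these samples, which may be technical. The sort used antibodies to B cell markers, among them B220, IgD, CD23 and CD5, and a dead cell stain, and no macrophage antibody. Total counts per library ranged from 9667187 to 24152518. Levels are CPM, counts per 1000000 counted fragments of an effective library size (TMM), given per kb of exon where genes are compared.

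The libraries labelled WT 1 and WT 2 (5 of the 21) went against their subset labels. Fcer2a, which encodes CD23, was 533 to 846 CPM in the other 5 B-2 libraries and 4.54 to 70.3 CPM in the other 11 B-1 libraries, but 817 CPM in the library labelled B-1a WT 1, 597 CPM in B-1b WT 2 and 24.2 CPM in B-2 WT 1. Cd5, which defines B-1a cells, was 15.7 to 22.6 CPM in the other B-1a libraries and 17.9 CPM in the library labelled B-1b WT 1, but 1.63 CPM in B-1a WT 2. Genotype labels could not be checked by Tet2 itself, which was counted over the whole gene (8.48 to 27.0 CPM in WT and 12.8 to 33.4 CPM in TET2-KO libraries) while only some exons were deleted. Genotype contrasts of Lyz1, Lyz2 and Adgre1 are given with and without these libraries, and those of other genes by their counts and medians without them.

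Both genes lie on chromosome 10, on the minus strand, with 4 exons each (GRCm39). Lyz1 (ENSMUSG00000069515.7) spans chr10:117123702-117128773 and Lyz2 (ENSMUSG00000069516.9) spans chr10:117113236-117118226, with 5475 bases between them. Their exons add up to 1263 and 1316 bases and were 96.0% identical over 1262 aligned bases. Exon 3 was the same at each of its 79 bases, exons 2 and 4 were both 96.4% identical, and exon 1 was 91.6% identical. The second exons, which are wholly coding, are shown because the counts of Lyz1 rest on such differences. Capitals mark the 6 of 165 bases that differ, and both are read 5′ to 3′ as in the mRNA, from chr10:117126934-117127098 for Lyz1 and chr10:117116546-117116710 for Lyz2.
Lyz1: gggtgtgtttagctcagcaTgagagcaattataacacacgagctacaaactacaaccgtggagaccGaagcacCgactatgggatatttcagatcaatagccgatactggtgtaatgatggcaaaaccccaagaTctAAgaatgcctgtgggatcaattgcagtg
Lyz2: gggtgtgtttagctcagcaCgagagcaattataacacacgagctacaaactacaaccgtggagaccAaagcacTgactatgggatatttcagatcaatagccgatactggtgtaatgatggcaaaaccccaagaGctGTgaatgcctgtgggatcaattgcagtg

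None of the 1114 windows of 150 bases along the Lyz1 exons occurred unchanged in Lyz2 (0 of 1114). The median window held 6 differences and the poorest held 1, and 279 of 1114 windows held 3 or fewer. The longest stretch shared without a difference was 118 bases. Fragments that aligned equally well to both genes were not counted on either. What share of the Lyz1 counts came from Lyz2 fragments was not tested.

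The bases before each start site were compared as well, because TET2 acts on cytosines followed by guanine. Capitals mark CG, the only motif searched (it reads the same on both strands), in the 200 bases from 250 to 51 before the RefSeq start (GRCm38.p6, minus strand), at chr10:117292919-117293118 for Lyz1 and chr10:117282323-117282522 for Lyz2.
Lyz1: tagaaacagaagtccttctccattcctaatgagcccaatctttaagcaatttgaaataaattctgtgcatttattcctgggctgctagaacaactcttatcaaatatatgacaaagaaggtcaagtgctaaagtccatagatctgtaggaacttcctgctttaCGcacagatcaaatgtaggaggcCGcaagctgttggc
Lyz2: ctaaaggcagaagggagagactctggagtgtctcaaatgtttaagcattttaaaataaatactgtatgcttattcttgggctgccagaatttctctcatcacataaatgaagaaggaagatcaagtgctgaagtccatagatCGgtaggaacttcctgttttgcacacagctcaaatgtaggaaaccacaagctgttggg

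Lyz1 held 2 CG and Lyz2 held 1 in these windows, which were 75.8% identical over 198 aligned bases. The median over 32851 promoters of that length was 4, 89.1% held at least 1, 36.4% held 2 or fewer and 24.6% held 1 or fewer. Methylation was not analysed here.

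Lyz2 was among the most abundant transcripts of every library. It ranked between 2 and 14 of all genes, took 0.444% to 2.39% of all counts, and ranged from 3959 to 27280 CPM. In B-1a cells Lyz2 was 27280, 10017, 24623 and 24920 CPM in WT 1 to 4 and 21696, 26200, 10960 and 3959 CPM in TET2-KO 1 to 4. In B-1b cells it was 15253, 14575, 12959 and 10914 CPM in WT 1 to 4 and 10533, 13541 and 5091 CPM in TET2-KO 1 to 3. Lyz2 in B-2 cells was 8418 and 22722 CPM in WT 1 and WT 4 and 16229, 18318, 14638 and 4214 CPM in TET2-KO 1 to 4. The genotypes overlapped in all 3 subsets, in B-2 only through WT 1, and the lowest value of each TET2-KO group was its last numbered library. The group means fell in the order B-1a WT, B-1a TET2-KO, B-2 WT, B-1b WT, B-2 TET2-KO and B-1b TET2-KO, from 21710 ± 7885 (SD, n = 4) to 9722 ± 4283 CPM (SD, n = 3), and every neighbouring pair overlapped in range and differed by less than the larger SD.

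Lyz1 was far lower and varied more, from 49.3 to 1350 CPM. In B-1a cells it was 982, 293, 1350 and 1284 CPM in WT 1 to 4 and 313, 482, 129 and 62.7 CPM in TET2-KO 1 to 4. TET2-KO 1 and 2 lay above WT 2 there, and TET2-KO 3 and 4 lay below every WT value. Without WT 1 and WT 2, which leaves fewer WT libraries, every TET2-KO B-1a library lay below WT 3 and WT 4. In B-1b cells Lyz1 was 683, 693, 598 and 571 CPM in WT 1 to 4 and 125, 189 and 49.3 CPM in TET2-KO 1 to 3, without overlap. The B-2 values were 178 and 1032 CPM in WT 1 and WT 4 and 245, 272, 232 and 73.1 CPM in TET2-KO 1 to 4, so 3 TET2-KO libraries lay between the WT values. Every TET2-KO B-2 library lay below WT 4, the only WT library left without WT 1. The 3 WT groups had the highest means, 977 ± 483 (SD, n = 4) in B-1a, 636 ± 60.6 (SD, n = 4) in B-1b and 605 ± 604 CPM (SD, n = 2) in B-2, followed by TET2-KO B-1a with 247 ± 189 (SD, n = 4), B-2 with 206 ± 89.8 (SD, n = 4) and B-1b with 121 ± 70.1 CPM (SD, n = 3). No pair of neighbours in that order differed by more than the larger SD, and all overlapped.

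Adgre1 was detected in every library, at 44.9 to 392 CPM. In B-1a cells it was 365, 151, 202 and 255 CPM in WT 1 to 4 and 392, 290, 223 and 44.9 CPM in TET2-KO 1 to 4. In B-1b cells it was 155, 158, 152 and 178 CPM in WT 1 to 4 and 230, 215 and 152 CPM in TET2-KO 1 to 3. Adgre1 in B-2 cells was 171 and 264 CPM in WT 1 and WT 4 and 285, 192, 185 and 45.0 CPM in TET2-KO 1 to 4. The genotypes overlapped in each subset. In these bulk samples fewer macrophages in a sort and less RNA per macrophage cannot be told apart.

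**Figure D1:**
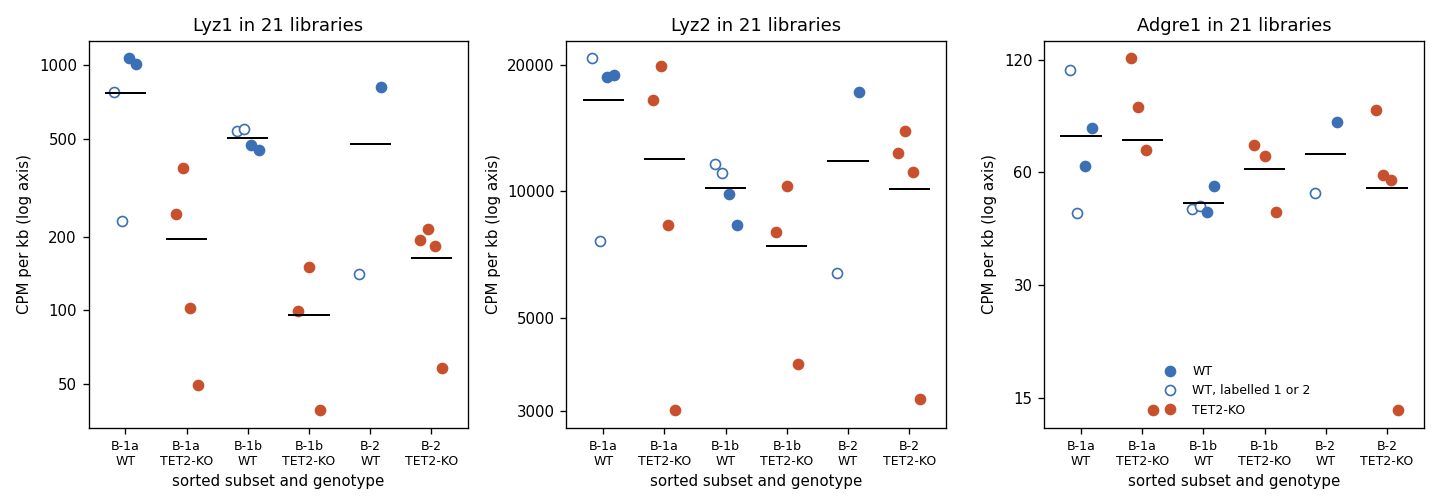
Levels of Lyz1, Lyz2 and Adgre1 in CPM per kb (log axes) in each of 21 libraries, by sorted subset and genotype; each point is a library, open points are the libraries labelled WT 1 and WT 2, and bars are group means. Group means of Lyz1 are lower in TET2-KO than in WT for each subset. The genotypes overlap for Lyz1 in B-1a and B-2, only through libraries labelled WT 1 or WT 2, and do not in B-1b. Lyz2 and Adgre1 overlap between genotypes in each subset, Lyz2 in B-2 only through WT 1.

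Set against Lyz2 of the same library, Lyz1 separated the genotypes. Per kb, Lyz1 was 2.20% to 5.71% of Lyz2 in the 10 WT libraries and 1.01% to 1.92% in the 11 TET2-KO libraries, so every TET2-KO library lay below every WT library. The ratio does not depend on scaling between libraries, and its 95% Wilson interval, which covers counting error only, reached at most 0.114 percentage points to either side. In B-1a cells it was 3.75%, 3.05%, 5.71% and 5.37% in WT 1 to 4 and 1.50%, 1.92%, 1.23% and 1.65% in TET2-KO 1 to 4. In B-1b cells it was 4.66%, 4.95%, 4.81% and 5.45% in WT 1 to 4 and 1.24%, 1.46% and 1.01% in TET2-KO 1 to 3. For B-2 it was 2.20% and 4.73% in WT 1 and WT 4 and 1.57%, 1.55%, 1.65% and 1.81% in TET2-KO 1 to 4. The 3 lowest WT values belonged to the libraries labelled B-2 WT 1, B-1a WT 2 and B-1a WT 1, and without WT 1 and WT 2 the lowest WT value was 4.73%.

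**Figure D2:**
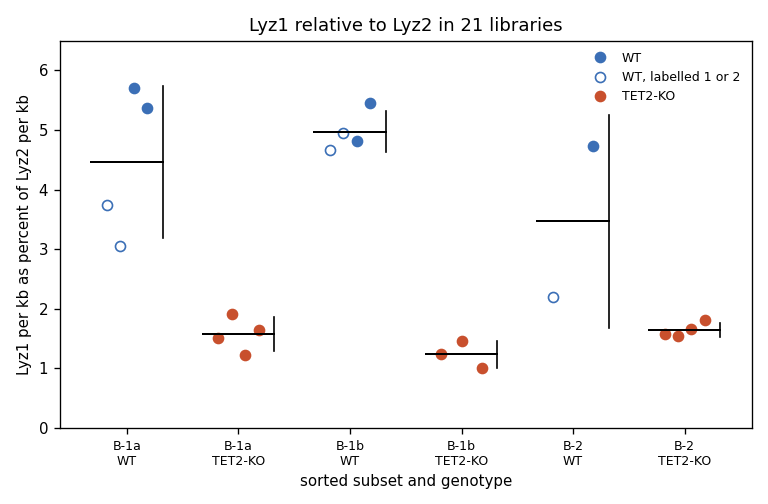
Lyz1 per kb as a percent of Lyz2 per kb (linear axis from 0) in each of 21 libraries by subset and genotype; points are libraries, open points are those labelled WT 1 and WT 2, horizontal bars are group means and vertical bars are the SD. The 11 TET2-KO libraries lie between 1.01% and 1.92%, below all 10 WT libraries.

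The B-1a and B-2 genotype contrasts, which the rule that chose Lyz1 did not name, were tested by two-sided exact permutation of the libraries, with p-values adjusted over 6 tests. The choice was not fully apart from them, because Lyz2 was chosen for its abundance in every library and earlier results of these data were known. If libraries of the same number stem from 1 mouse, these tests are not independent of the B-1b values that chose Lyz1. Both contrasts also include libraries labelled WT 1 or WT 2. In B-1a cells the mean log2 ratio of Lyz1 to Lyz2 fell by 1.48 ± 0.25 (SE) in TET2-KO, which is 2.78-fold lower, in 4 of 4 TET2-KO libraries below every WT library (exact permutation p = 0.0286, the smallest 4 against 4 allows, adjusted p = 0.0857). Leaving out WT 1 and WT 2 gave -1.83. In B-2 cells it fell by 0.97 ± 0.35 (SE), which is 1.96-fold lower, again with 4 of 4 below both WT libraries (exact permutation p = 0.0667, the smallest 2 against 4 allows, adjusted p = 0.133), and was -1.53 against WT 4 alone and -0.42 against WT 1 alone. Neither passed 0.05 after adjustment, but with so few libraries no outcome of these 6 tests could have passed, so this decides nothing. In B-1b cells, described without a test, the difference was -2.02 ± 0.14 (SE), or 4.06-fold lower, and -2.07 without WT 1 and WT 2.

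Few other genes showed the same separation by a ratio to Lyz2, but this is partly built in and is not a test. Most genes did not follow Lyz2 over the 21 libraries (median rho 0.01, immunoglobulin genes left out). Their ratios therefore carry the 6.89-fold range of Lyz2 itself, whereas Lyz1 followed Lyz2 (rho 0.77). Of 9646 genes with a mean of at least 5 CPM, 59 (0.612%) had a lower ratio to Lyz2 in every TET2-KO than in every WT B-1a library, 7 (0.0726%) in B-2 and 32 (0.332%) in B-1b, Lyz1 included each time. Over all 21 libraries it was 1 gene (0.0104%), Lyz1 itself. Leaving out WT 1 and WT 2 leaves fewer WT libraries to lie below. The counts were then 70 (0.726%) in B-1a, 21 (0.218%) in B-2, 135 (1.4%) in B-1b and 3 (0.0311%) over all remaining libraries, Lyz1 included each time. Subsets with the same genotype and number may stem from 1 mouse, so the 21 libraries may not be independent, and the B-1b values took part in choosing Lyz1.

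Relative to Adgre1, Lyz1 was also lower in TET2-KO B-1 libraries. Per kb, Lyz1 was 6.90, 4.98, 17.1 and 12.9 times Adgre1 in B-1a WT 1 to 4 and 2.05, 4.25, 1.48 and 3.58 times in TET2-KO 1 to 4, without overlap. The mean log2 ratio fell by 1.84 ± 0.54 (SE) in B-1a cells (exact permutation p = 0.0286, adjusted p = 0.0857), and the difference was -2.51 without WT 1 and WT 2. In B-1b cells the ratio was 8.23 to 11.3 in WT and 0.833 to 2.26 in TET2-KO libraries, a difference of -2.88 ± 0.37 (SE) that was -2.72 without WT 1 and WT 2. In B-2 cells it was 2.67 and 10.02 in WT 1 and WT 4 and 2.21 to 4.16 in TET2-KO, which overlapped. The B-2 difference of -0.68 ± 0.65 (SE) did not pass (exact permutation p = 0.40, adjusted p = 0.48), and was 0.27 against WT 1 alone and -1.64 against WT 4 alone.

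Lyz2 relative to Adgre1 showed smaller differences. Per kb it was 163 to 299 times Adgre1 in B-1a WT and 121 to 222 times in B-1a TET2-KO, with a difference of -0.36 ± 0.30 (SE) on the log2 scale (exact permutation p = 0.257, adjusted p = 0.386) that was -0.68 without WT 1 and WT 2. In B-2 cells it was 121 and 212 times in WT and 140.1 to 235 times in TET2-KO, with a difference of 0.29 ± 0.36 (SE) (exact permutation p = 0.533, adjusted p = 0.533), which was -0.11 against WT 4 alone. The B-1b ratio was 151 to 242 times in WT and 82.6 to 155 times in TET2-KO, a difference of -0.85 ± 0.28 (SE) with 2 of 3 TET2-KO libraries below every WT library, and of -0.65 without WT 1 and WT 2. Lyz2 and Adgre1 are both macrophage genes in textbook accounts, and their ratio overlapped between genotypes in each subset. In B-1a that overlap came only through WT 1 and WT 2, since WT 3 and WT 4 were at 299 and 240 times.

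**Figure D3:**
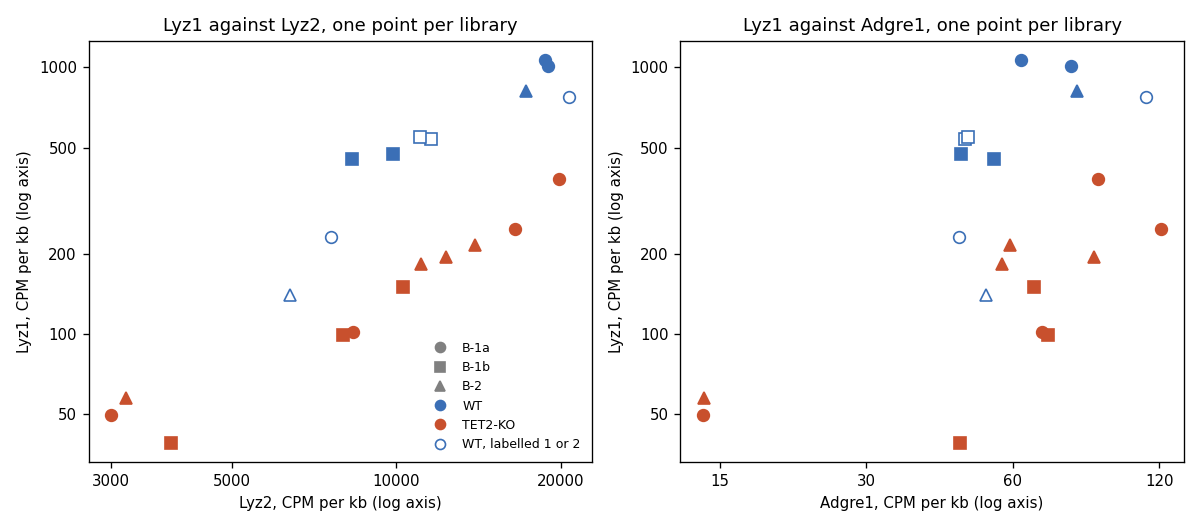
Lyz1 against Lyz2 (left) and against Adgre1 (right), all in CPM per kb on log axes, with 1 point per library; shapes are subsets, colours are genotypes and open points are the libraries labelled WT 1 and WT 2. At a given Lyz2 level the TET2-KO libraries lie below the WT libraries, and within each genotype Lyz1 rises with Lyz2.

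The fit of all genes gave larger errors for the single genes than for their ratio. Lyz1 had a log2 fold change (TET2-KO over WT) of -1.96 ± 0.64 (SE) in B-1a cells (edgeR quasi-likelihood, adjusted p = 0.530) and of -1.59 ± 0.68 (SE) in B-2 cells (edgeR quasi-likelihood, adjusted p = 0.531). The adjusted p ranged over the alternatives from 0.220 to 0.919 for B-1a cells and from 0.378 to 1.00 for B-2 cells. Without WT 1 and WT 2 the log2 fold changes were -2.41 and -2.34, and against WT 1 alone the B-2 value was 0.22. Lyz2 had -0.44 ± 0.52 (SE) in B-1a and -0.25 ± 0.62 (SE) in B-2 cells (edgeR adjusted p = 0.789 and 0.842), and Adgre1 had -0.00041 ± 0.52 (SE) and -0.32 ± 0.59 (SE) (edgeR adjusted p = 1.00 and 0.786). In B-1b cells, without a test, the log2 fold changes were -2.37 ± 0.38 (SE) for Lyz1, -0.45 ± 0.32 (SE) for Lyz2 and 0.33 ± 0.16 (SE) for Adgre1. Leaving out WT 1 and WT 2 gave -0.66 in B-1a, -0.78 in B-2 and -0.29 in B-1b for Lyz2, 0.06, -0.59 and 0.28 for Adgre1, and -2.26 for Lyz1 in B-1b. None of the 3 genes passed in B-1a or B-2, where few genes did: edgeR called 7 of 13923 genes (0.0503%) in B-1a, with 1093 at an unadjusted p under 0.05 and 191 called by DESeq2, and 0 of 19786 (0.0%) in B-2, with 1754 at an unadjusted p under 0.05 and 162 called by DESeq2. In B-1b, whose contrast chose the genes, edgeR called 0 of 14368 (0.0%), with 787 at an unadjusted p under 0.05 and 52 called by DESeq2.

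Between sorted subsets of TET2-KO cells the lysozyme genes did not pass the test either. B-1a minus B-2 log2 fold changes were 0.26 ± 0.57 (SE) for Lyz1, 0.24 ± 0.56 (SE) for Lyz2 and 0.43 ± 0.61 (SE) for Adgre1 (edgeR quasi-likelihood, adjusted p = 0.815, 0.834 and 0.703), in a comparison that called 1414 of 15723 genes (8.99%). The Lyz1 to Lyz2 ratio was 1.57% ± 0.287 (SD, n = 4) in TET2-KO B-1a, 1.65% ± 0.117 (SD, n = 4) in TET2-KO B-2 and 1.24% ± 0.224 (SD, n = 3) in TET2-KO B-1b libraries. WT B-1a libraries had 4.47% ± 1.28 (SD, n = 4), WT B-1b libraries 4.97% ± 0.344 (SD, n = 4) and WT B-2 libraries 3.47% ± 1.79 (SD, n = 2). The group ranges overlapped between subsets within a genotype, in B-1b and B-2 TET2-KO excepted, which ran up to 1.46% and from 1.55%. For WT this used the libraries that went against their subset labels. Without WT 1 and WT 2 the WT values were 5.71% and 5.37% in B-1a and 4.81% and 5.45% in B-1b. The 1 B-2 WT library left, at 4.73%, lay below both.

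Across the 21 libraries Lyz1 and Lyz2 rose and fell together within a genotype. The Spearman rho of their levels was 0.77 over all libraries, 0.97 over the 11 TET2-KO and 0.90 over the 10 WT libraries, and 0.95 for deviations from the 6 group means. Between Lyz1 and Adgre1 it was 0.38 over all, 0.75 over TET2-KO and 0.65 over WT libraries, and between Lyz2 and Adgre1 it was 0.78, 0.78 and 0.72. These libraries share subset, genotype and perhaps mouse, and Lyz1 and Lyz2 share sequence, so no p is given.

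The genes whose pattern was most like Lyz1 over the 21 libraries, among 9458 other named genes with a mean of at least 5 CPM after immunoglobulin genes were left out, were Slpi (rho 0.88), Pf4 (0.88), Spint2 (0.85), Ggh (0.84) and Fcrl2 (0.84). Slpi encodes a secreted inhibitor of serine proteases, Pf4 a chemokine of platelets and macrophages, Spint2 a membrane protease inhibitor and Ggh a lysosomal gamma-glutamyl hydrolase. The 4 most like Lyz2 were Apoe (rho 0.94), Mt1 (0.94), Mcemp1 (0.93) and Ednrb (0.93). Apoe encodes the lipid carrier apolipoprotein E and is in the macrophage list, Mt1 a metallothionein and Ednrb an endothelin receptor. Lyz2 ranked 20 among the genes most like Lyz1, and Adgre1 ranked 1285 for Lyz1 and 98 for Lyz2.

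Macrophage transcripts were present in every library and moved with Lyz2. All 14 macrophage genes and all 10 genes of large peritoneal macrophages had a mean of at least 1 CPM, and none was at 0 counts in every library. The macrophage genes summed to 1387 to 7937 CPM and the large peritoneal macrophage genes to 537 to 3678 CPM. By group, the macrophage sum was 3085 to 7937 CPM in B-1a WT, 2226 to 7218 in B-1a TET2-KO, 3367 to 3698 in B-1b WT, 2354 to 4093 in B-1b TET2-KO, 2403 to 6536 in B-2 WT and 1387 to 5983 in B-2 TET2-KO. These sums followed Lyz2 with a rho of 0.93 for the macrophage list and 0.86 for the large peritoneal list, and Lyz1 with 0.59 and 0.48. Of the lists summed, the neutrophil and monocyte list followed Lyz1 most closely, with a rho of 0.71, and Lyz2 with 0.84, at far lower levels. Their part in the Lyz1 difference was not tested.

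No macrophage gene passed the test between genotypes in B-1a or B-2, where edgeR called 0.0503% and 0.0% of all genes. With shares this small, 0 calls in this or any later list say little about its genes. The edgeR fit called 0 of 14 macrophage genes in B-1a and 0 of 14 in B-2, with 0 at an unadjusted p under 0.05 and 0 called by DESeq2 in both, and median log2 fold changes of -0.06 and -0.06 against 0.02 and 0.18 over all genes tested. The most abundant were Apoe, C1qb, C1qc and C1qa, the last 3 encoding chains of complement C1q. Their B-1a log2 fold changes were -0.26 ± 0.38 (SE), -0.02 ± 0.45 (SE), -0.06 ± 0.46 (SE) and -0.16 ± 0.45 (SE). Of the large peritoneal list the most abundant were Alox15, an arachidonate lipoxygenase, Prg4, encoding lubricin, the adhesion molecule gene Icam2 and Cd5l, which encodes a secreted macrophage protein. The list had median log2 fold changes of 0.18 in B-1a and 0.05 in B-2, with 0 of 10 called in each, 0 at an unadjusted p under 0.05 and 0 called by DESeq2. Without WT 1 and WT 2 the medians were -0.29 in B-1a and -0.61 in B-2 for the macrophage list and -0.16 and -0.40 for the large peritoneal list, with 0 genes called by edgeR in either subset.

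Each of the 24 macrophage genes was then set against Lyz2 as Lyz1 had been. Their median TET2-KO minus WT difference in mean log2 count over Lyz2 count was 0.45 in B-1a, 0.18 in B-2 and 0.51 in B-1b cells, against -1.48, -0.97 and -2.02 for Lyz1. Without WT 1 and WT 2 the medians were 0.50, 0.12 and 0.30, against -1.83, -1.53 and -2.07, and the lowest of the 24 were -0.60, -0.58 and -2.24, the last below Lyz1. The lowest of the 24 were Fcgr1, an Fc receptor gene, at -0.73 in B-1a and -0.48 in B-2, and Cd163, a scavenger receptor gene with a mean of 2.90 CPM, at -1.98 in B-1b. None of the 24 had a lower ratio in every TET2-KO than in every WT library in any subset (0 of 24 each time). Over all genes it was 0.612%, 0.0726% and 0.332% in B-1a, B-2 and B-1b. Without WT 1 and WT 2 it was 0, 1 and 1 of 24, beside 0.726%, 0.218% and 1.4% over all genes. With shares over all genes this small, 0 of 24 says little about macrophage genes. In the other direction, 2 of 24 in B-1a, 1 in B-2 and 3 in B-1b had a higher ratio in every TET2-KO than in every WT library. Over all 21 libraries it was 0. The share over all genes was not counted for that direction, so these counts cannot be read as particular to macrophage genes. Fcgr1 and Cd163 were named after their values were seen, for being lowest. Both were low in level, Fcgr1 having a mean of 2.94 CPM, and each was at 0 counts in 1 library.

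**Figure D4:**
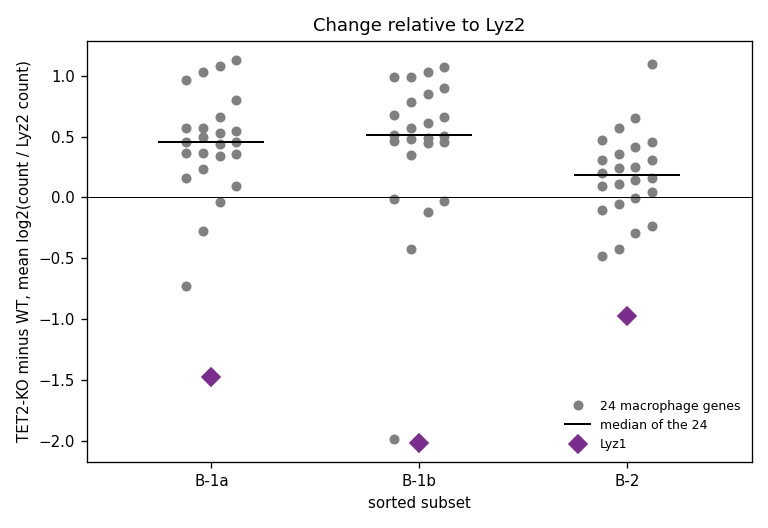
TET2-KO minus WT difference in mean log2 of the count over the Lyz2 count, for Lyz1 (diamonds) and 24 macrophage genes (grey points, bar at their median), by subset. Lyz1 lies below all 24 genes in every subset, at -1.48 in B-1a, -2.02 in B-1b and -0.97 in B-2, with Cd163 near it in B-1b at -1.98; without WT 1 and WT 2 the lowest macrophage gene lies below Lyz1 in B-1b.

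RNA of other cells that make lysozyme was low. Of 14 neutrophil and monocyte genes 10 had a mean under 1 CPM. The neutrophil genes S100a9 and Ly6g were at 0 counts in 15 and 18 libraries. Others of the list were detected more widely. S100a8, named after its values were seen, was at 0 in 1 library and reached 2.00 CPM, and Csf3r was at 0.671 to 15.7 CPM. The highest were Ccr2, a chemokine receptor gene of monocytes, at 7.23 to 33.2 CPM, Ly6c2, Csf3r and Mmp8, and the list summed to 15.96 to 68.3 CPM. Ly6c2, a monocyte surface gene, was 14.6 ± 2.54 (SD, n = 4) in WT and 8.07 ± 6.10 CPM (SD, n = 4) in TET2-KO B-1a, 15.6 ± 1.68 (SD, n = 4) and 9.07 ± 1.25 CPM (SD, n = 3) in B-1b, and 6.45 ± 5.92 (SD, n = 2) and 7.40 ± 6.38 CPM (SD, n = 4) in B-2 libraries. All 7 Paneth cell genes had a mean under 1 CPM and summed to at most 1.64 CPM, with Itln1, Mptx2, Defa24 and Mmp7 the highest. The 8 other genes of the lysozyme family list summed to at most 1.57 CPM, the highest being Lalba, Lyzl4, Lyg1 and Spaca5. Lyz3, a neighbouring lysozyme gene outside that list, had a mean of 0.135 and a maximum of 1.19 CPM.

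RNA of further cell types was present to varying degrees. Mast cell genes summed to 297 to 1242 CPM (the highest being Tpsb2, Cma1, Cpa3 and Mcpt4, all proteases of mast cell granules), T cell genes to 5.23 to 69.5 CPM (Cd3g, Cd3d, Cd8b1 and Lat), dendritic cell genes to 34.7 to 1197 CPM (Ccr7, Cd209a, Flt3 and Zbtb46, of which Ccr7 is also a B cell gene) and erythroid genes to 0.327 to 1709 CPM (Hba-a1, Hbb-bs, Hba-a2 and Hbb-bt, encoding globins). The erythroid sum was highest in a WT B-1a library. B cell genes (Cd79a, Cd79b and Ms4a1 the highest, the first pair encoding the signalling chains of the B cell receptor) summed to 12906 to 28894 CPM. EdgeR called 0 genes of these lists and of the neutrophil and monocyte list between genotypes in B-1a and B-2, beside 0.0503% and 0.0% of all genes. At an unadjusted p under 0.05 were 5 erythroid, 3 dendritic cell and 1 T cell gene in B-1a and 0 in B-2. DESeq2 called 5 erythroid genes and 1 dendritic cell gene in B-1a. All 5 tested erythroid, all 4 tested dendritic cell and 7 of 8 T cell genes had lower values in TET2-KO than in WT B-1a cells, with median log2 fold changes of -6.34, -2.02 and -0.53, and in B-1b cells the medians were -3.26, -1.29 and -1.13. Without WT 1 and WT 2 the 3 medians were -4.01, -1.08 and -0.97 in B-1a cells and -1.11, -0.39 and 0.10 in B-1b cells. Their part in the Lyz1 difference was not tested.

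Lysosomal genes, whose products work beside lysozyme, were measured in full, 18 of 18. All 18 had negative log2 fold changes in B-1a cells, with a median of -0.27 against 0.02 over all genes, and 17 of 18 in B-2 cells, with a median of -0.39 against 0.18. None passed (0 called by edgeR, beside 0.0503% of all genes in B-1a and 0.0% in B-2). At an unadjusted p under 0.05 were 1 in B-1a and 2 in B-2, and DESeq2 called 0. Without WT 1 and WT 2 all 18 were negative in both subsets, with medians of -0.23 and -0.46. The most abundant were Ctss, Psap, Ctsz and Ctsb, encoding cathepsins S, Z and B and prosaposin, with B-1a log2 fold changes of -0.28 ± 0.19 (SE) for Ctss, -0.10 ± 0.20 (SE) for Psap, -0.37 ± 0.14 (SE) for Ctsz and -0.27 ± 0.30 (SE) for Ctsb. In TET2-KO cells Psap was higher in B-1a than in B-2 cells, by 1.08 ± 0.29 (SE) on the log2 scale (edgeR adjusted p = 0.0458), the only lysosomal gene of 18 called there (8.99% of all genes).

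Genes that sense or carry peptidoglycan fragments had mixed directions. Of 15 in the list 11 were tested in B-1a, 6 with a higher and 5 with a lower value in TET2-KO. In B-2 it was 14, 7 each way, and the median log2 fold changes were 0.05 and 0.02. EdgeR called 0 in both, beside 0.0503% and 0.0% of all genes. At an unadjusted p under 0.05 were 4 and 2, and DESeq2 called 1 and 0. The most abundant were Slc15a4, a peptide transporter gene of lysosomes, Pglyrp1, encoding a peptidoglycan recognition protein, Nagk, an N-acetylglucosamine kinase gene, and Ripk2, the kinase gene downstream of the NOD receptors. Pglyrp1 had a log2 fold change of -1.29 ± 0.25 (SE) in B-1a cells (edgeR adjusted p = 0.109) and 0.32 ± 0.41 (SE) in B-2 cells, and -1.06 and -0.27 without WT 1 and WT 2, when the list medians were -0.13 and -0.26. In TET2-KO cells 2 genes were higher and 2 lower in B-1a than in B-2 cells, of 11 tested, beside 8.99% of all genes in that comparison. Slc15a3, a lysosomal transporter gene, and Tlr2, a receptor gene for bacterial lipoproteins, were higher by 1.71 ± 0.36 (SE) and 1.43 ± 0.32 (SE) on the log2 scale, and Pglyrp1 and Pglyrp2 had -1.53 ± 0.17 (SE) and -3.82 ± 0.83 (SE) (edgeR adjusted p = 0.0175, 0.0233, 0.000517 and 0.0191).

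Myeloid transcription factor genes did not pass between genotypes (0 of 7 tested in B-1a and in B-2, beside 0.0503% and 0.0% of all genes). The median log2 fold changes were -0.05 and -0.09, with 0 at an unadjusted p under 0.05 and 0 called by DESeq2. The most abundant were Irf8, Spi1 and Cebpb, of which Spi1 encodes PU.1 and Irf8 is also a B cell gene. Their B-1a log2 fold changes were -0.81 ± 0.44 (SE), -0.05 ± 0.12 (SE) and 0.05 ± 0.41 (SE), and 0.11, 0.01 and -0.44 without WT 1 and WT 2, when the list medians were -0.16 in B-1a and -0.62 in B-2. Irf8 was lower in B-1a than in B-2 TET2-KO cells, by -1.46 ± 0.20 (SE) on the log2 scale (edgeR adjusted p = 0.0016).

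Around the locus, 17 genes lay within 250 kb and 6 of them, Lyz1 and Lyz2 included, had a mean of at least 1 CPM. The other 4 were Cct2, a chaperonin subunit gene, Frs2, an adaptor gene of growth factor receptors, Yeats4, a histone reader gene, and Cpsf6, a pre-mRNA cleavage factor gene. Their log2 fold changes in B-1a cells were 0.08, -0.17, 0.14 and 0.11 (edgeR adjusted p = 0.880, 0.815, 0.806 and 0.812), against -0.44 for Lyz2 and -1.96 for Lyz1. In B-2 cells they were -0.25, 0.04, -0.004 and -0.12 (edgeR adjusted p = 0.625, 0.929, 0.993 and 0.778). None of the 6 passed the test, with or without WT 1 and WT 2.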

How the data were processed

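Raw fragment counts per gene were deposited for each library. The authors used fastp for trimming, STAR for alignment (GRCm39) and featureCounts 1.6.1 for counting on GENCODE vM32, unstranded and in pairs per the file headers. Fragments aligning to several places were not counted, which bears on the similar Lyz1 and Lyz2. The labels and the paper describe the library preparation differently (poly-T selection with random priming, or amplified full-length cDNA). Symbols came from GENCODE vM39 (56310 identifiers matched, 643 did not).

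Genes were fitted per subset in R 4.3.3 by edgeR 4.0.16 and limma 3.58.1, after TMM scaling and filterByExpr, with a robust quasi-likelihood test and Benjamini-Hochberg adjustment at 0.05, which was checked on simulated counts. Ratios took 0.5 counts added and the exon length, and were compared with a two-sided exact permutation test. Likeness used log2(CPM + 1). DESeq2 1.42.0, other scalings and filters, a replicate block and left-out libraries were alternatives. The study compared genotypes with DESeq2.

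Groups came from the titles. The genes and all lists were chosen with earlier results of these data known. Named were Lyz1, Lyz2, Adgre1, the 4 highest of each of 13 lists, the 5 genes most like each lysozyme gene, neighbours within 250 kb, and genes said to be named after their values were seen; some genes this rule picks are not reported here. Reads were not analysed here.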

Additional observations from a re-analysis of the deposited data

Results flagged for a closer look

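Of 24 groups of 4 libraries tested for a library far from the rest (Lyz1, Lyz2 and Adgre1 levels and their 3 log2 ratios), 1 held such a library, about what chance gives at 1 in 20. Lyz2 was 10017 CPM in the library labelled B-1a WT 2, whereas the other B-1a WT libraries had 24623 to 27280 CPM. That library also went against its subset label (Cd5 at 1.63 CPM). Without it the B-1a difference in the log2 ratio of Lyz1 to Lyz2 was -1.64.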

How the results depend on the processing

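The Lyz1 to Lyz2 difference kept its negative direction under every alternative run. With each library left out it ranged from -1.64 to -1.34 in B-1a, from -1.53 to -0.42 in B-2 and from -2.15 to -1.88 in B-1b cells. With counts summed per group it was -1.50, -1.31 and -1.93. No adjusted p passed 0.05 (0.0857 to 0.20 in B-1a, 0.133 to 0.30 in B-2), a level that the main run could not have reached with so few libraries. With 1 WT library in B-2 the lone library was assumed to vary like the others in the edgeR fit.

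Leaving out each library gave Lyz1 log2 fold changes from -2.51 to -1.65 in B-1a, from -2.34 to 0.22 in B-2 and from -0.30 to 0.63 for B-1a against B-2 TET2-KO cells. Lyz2 ranged from -0.80 to -0.13 in B-1a, -0.78 to 0.68 in B-2 and from -0.15 to 0.60 between subsets. For Adgre1 the B-1a range was -0.35 to 0.34 and the B-2 range -0.65 to 0.070. Against WT 1 alone in B-2 the Lyz1 to Adgre1 difference was 0.27, and Lyz2 to Adgre1 ranged from -0.11 to 0.69 (-0.11 without WT 1 and WT 2). Adgre1 in B-1a was 0.018 with at least 10 counts in every library and 0.057 without WT 1 and WT 2. The cause of these sign changes was not tested beyond the library left out, and none of these values passed the test.

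Counts of called genes moved far more. In B-1a 7 genes became 191 with DESeq2, 318 without a filter, 0 without WT 1 and WT 2 (fewer samples) and 0 to 6 with 1 library left out. In B-2 0 became 162 with DESeq2, 167 without a filter and up to 576 without WT 4 (0 to 576). In B-1b 0 became 52 and 131 and stayed at 0 to 0 with libraries left out. Between subsets 1414 became 4690, 2740 and 620 (without B-2 TET2-KO 2) to 2311 (without B-2 TET2-KO 3). Whether replicate numbers pair the samples was not settled. Same-number correlations were at most 0.14 in B-1a (lowest -0.10) and 0.17 in B-1b (lowest -0.13), and 0.18 and 0.43 in B-2. Between B-1a and B-2 TET2-KO libraries they were 0.29, 0.10, -0.16 and 0.08. Not every library correlated best with its own number. Levels in TET2-KO 4 were nevertheless close in B-1a and B-2, with Adgre1 at 44.9 and 45.0 CPM and Lyz2 at 3959 and 4214 CPM. Those of TET2-KO 1 to 3 differed more. With the replicate block B-1a had 48 calls, B-2 0, B-1b 0 and the subset comparison 1898. The 12 group means of Lyz1 and Lyz2 moved by less than 1 SD under both other scalings. Leaving out WT 1 and WT 2 for the genes set against Lyz2, the gene lists and the locus was chosen after seeing the data.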
